A study of Homo sapiens with 3 samples.

Results

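D14 cardiomyocytes (CMs) are described here as the cells of the D14 library that carried much heart muscle RNA and little RNA of dividing cells. Cells were selected on 2 quantities. UMIs of TNNT2, MYH6, MYL7 and TTN together had to make up 1% or more of the UMIs of a cell, and UMIs of the proliferation genes MKI67, TOP2A, CENPF, TPX2, NUSAP1 and UBE2C had to stay under 8 per 10000. A UMI, or unique molecular identifier, marks 1 captured mRNA molecule. Of the 3585 cells kept at D14, 778 met the rule (21.7%, exact Clopper-Pearson 95% interval 20.4% to 23.1%), out of 8188 kept cells over all days. The other 2807 kept D14 cells served as the comparison. A further 33 D14 cells passed the muscle limit and were over the proliferation limit, and were counted with the other cells.

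Chambered cardiac organoids (CCOs) were grown from H7, an established human embryonic stem cell line, and were profiled at D8, D14 and D21 as 1 droplet library per day. All groups went through the same protocol, with CHIR99021 to activate and then IWP-2 to block Wnt signalling, and were aggregated in Matrigel at D7. D8 and D14 organoids had been kept in a growth medium with thrombin, cardiotrophin-1, EGF, FGF-2, Wnt-3A and EDN1, and D21 organoids had spent the last week in a spinner flask with RPMI/B27. No genotype or agent differed between groups of the same day, and the number of organoids behind each library is not given in the sources used here. With 1 library of 1 cell line per day, a difference between days cannot be told apart from one between libraries, nothing was tested, and each interval given is of counting error only. UMIs are single molecules, but cells of 1 library are not replicates.

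A heart muscle cell contracts when calcium released from its internal store lets myosin of the thick filament pull on actin of the thin filament, inside repeating units called sarcomeres that are anchored at Z-discs. Early heart muscle uses atrial-type and slow skeletal isoforms of several of these proteins, takes most of its energy from glycolysis, and is held in its fate by transcription factors such as NKX2-5, GATA4, TBX5 and MEF2C. Progenitors of the second heart field, which add muscle to the growing heart tube, carry ISL1 and FGF10. Serum response factor and its partner myocardin act on many muscle genes through a short element, the CArG box.

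The promoters of 3 heart muscle genes are shown: MYL7, which takes part in the selection, ACTC1, which does not, and NPPA, which differed widely among the selected cells. Each is the 250 bases before the transcription start, 5′ to 3′ on the minus strand, from RefSeq on GRCh38.p14. Capitals mark a CArG box or a GATA element (AGATAA or TGATAA, either strand).
MYL7, chr7:44141333-44141582: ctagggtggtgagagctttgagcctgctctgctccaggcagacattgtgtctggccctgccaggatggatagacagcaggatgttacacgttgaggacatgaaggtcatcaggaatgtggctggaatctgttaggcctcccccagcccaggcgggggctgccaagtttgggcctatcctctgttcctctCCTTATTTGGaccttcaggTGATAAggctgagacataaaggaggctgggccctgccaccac
ACTC1, chr15:34795550-34795799: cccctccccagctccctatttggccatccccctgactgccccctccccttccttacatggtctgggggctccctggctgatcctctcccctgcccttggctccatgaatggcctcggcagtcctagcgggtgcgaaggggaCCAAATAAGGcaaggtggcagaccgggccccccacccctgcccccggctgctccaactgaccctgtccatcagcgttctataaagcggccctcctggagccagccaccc
NPPA, chr1:11847784-11848033: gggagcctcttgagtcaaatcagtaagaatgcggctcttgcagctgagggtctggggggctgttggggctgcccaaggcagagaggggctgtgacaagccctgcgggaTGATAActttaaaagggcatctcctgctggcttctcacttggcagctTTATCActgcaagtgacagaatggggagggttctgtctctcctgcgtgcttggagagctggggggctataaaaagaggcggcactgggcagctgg
MYL7 and ACTC1 each hold 1 CArG box, MYL7 also 1 TGATAA, and NPPA holds 2 TGATAA. Over the thick filament, thin filament and Z-disc lists with the 4 selection genes, 29 of 40 genes had a promoter of this length in the table. A CArG box was found in 15% of their 40 windows, against 1.16% of all 35116 windows. AGATAA was found in 25% against 9.17%, TGATAA in 10% against 6.66%, and the TATA box letters TATAAA in 12.5% against 10.7%. A match of letters describes the window and says nothing of binding, and ACTC1 has 3 such windows, of which the one farthest upstream is shown.

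The muscle share of UMIs in D14 cells ran from near 0 to 9.34% with no gap at the limit. Among the selected cells its median was 2.10%, with quartiles of 1.43% and 3.14%, against 0.0513% in the other D14 cells. There were 47 D14 cells between 0.9% and 1% and 45 between 1% and 1.1%, so that many cells lie near the cut. In bins of equal width on a log scale, 324 cells lay between 0.0398% and 0.0501% and 67 between 0.200% and 0.251%. Above the cut, 141 lay between 1.9953% and 2.5119%. The dip thus lay below the cut, which falls within the upper group of cells. Whether that group is a separate type was not tested. The 44 cells that met the rule between 1% and 1.1% and the 43 that missed it between 0.901% and 0.996% also had similar levels of genes the rule did not use. ACTC1 was at 2475 UMIs per 1000000 (CPM, summed over cells) just inside and 2593 just outside, NKX2-5 at 547 and 679, and TNNC1 at 339 and 293. Selected cells had a median of 12720 UMIs and 3691 genes, against 12142 UMIs and 3518 genes in the other cells. Their mitochondrial share was 5.44% against 2.79%. By the same rule 139 of 2657 cells were selected at D8 (5.23%, 4.42% to 6.15%) and 592 of 1946 at D21 (30.4%, 28.4% to 32.5%). The median muscle share of those cells was 1.53% at D8 and 4.54% at D21, and their mitochondrial share 3.41% and 8.40%.

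**Figure D1:**
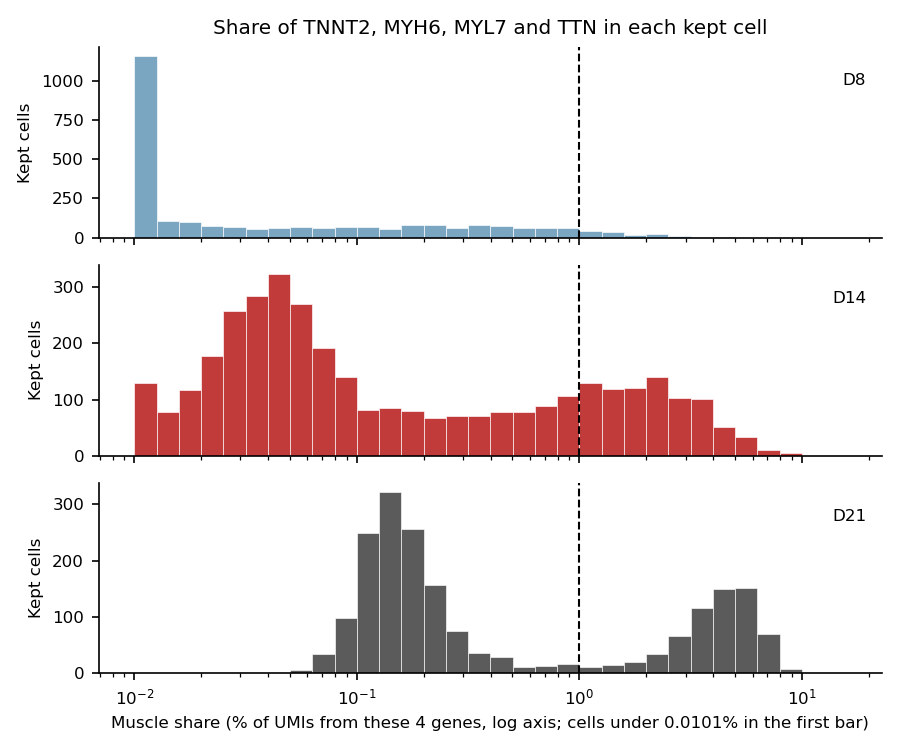
Number of kept cells (vertical axis) by the share of UMIs from TNNT2, MYH6, MYL7 and TTN (horizontal axis, log scale), for D8, D14 and D21 from top to bottom, with the 1% limit as a dashed line. At D14 no valley marks the limit, with 45 cells between 1% and 1.1%, and the dip lies below it, with 67 cells between 0.200% and 0.251%.

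The share of cells that met the rule depended on the mitochondrial limit. At D14, 204 barcodes were over the 10% limit and otherwise within the filter, and 164 of them (80.4%) met the muscle and proliferation limits, which is 17.4% of all D14 barcodes that met both. Against the selected CMs, 47 of 8948 genes were 2-fold or more higher in these barcodes (0.525%) and 78 lower (0.872%). At D21 the barcodes so left out were 74.4% of all that met both limits. Among all barcodes, kept or not, D14 and D8 share 25 sequences, 3 of them those of selected D14 cells. D14 and D21 share 59, of which 10 are those of selected D14 cells. The doublet caller Scrublet marked 1 D14 cell (0.0279%), so few that the caller has not worked here, and no cell was removed. The median doublet score was 0.0411 in selected cells and 0.0470 in the others.

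The label was checked against defining markers. Apart from the 4 that chose the cells, 8 of 8 cardiomyocyte markers on the list were 2-fold or more above the other D14 cells, with log2 ratios of 2.64 to 4.11 and a median of 3.52. Markers of other cell types were mostly not higher: 0 of 3 endothelial, 0 of 7 fibroblast and 0 of 2 early mesoderm and ectoderm genes at 10 CPM or more. By 2-fold or more, 2, 5 and 2 of them were lower, and EGFL7, COL1A2 and THY1 stayed within 2-fold. The summed fibroblast list stood at 579 CPM against 1595 in the other cells, and the endothelial list at 121 against 164. Epicardial genes summed to 2.87 CPM against 17.1. Of 7 endoderm genes 1, APOA1, was higher, at 84.5 against 33.1 CPM. APOA1 encodes a lipoprotein of liver and gut, and 1 cell held 225 of its 913 UMIs together with all 37 UMIs of ALB and 23 of 24 of AFP. Without that cell APOA1 stood at 63.9 CPM, under the 2-fold mark. The smooth muscle list was at 1255 CPM against 425, with 3 of 5 genes higher, and it includes ACTA2, which embryonic heart muscle also uses. The 4 selection genes varied unequally from cell to cell: the median was 75.6 UMIs per 10000 for MYL7 with a coefficient of variation of 101%, and 46.2 with 42.7% for TTN.

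Over all 9398 genes at 10 CPM or more in either group, 856 were 2-fold or more higher in the D14 CMs than in the other D14 cells (9.11%) and 746 lower (7.94%), and the median log2 ratio was 0.00931. These cells were chosen on part of the same counts, so the counts and medians below are descriptions. In summed counts, fewer cells with a transcript and less transcript per cell cannot be told apart, and shares of cells are therefore given for the genes on which the account turns. Shares were taken after each cell had been thinned to 4000 UMIs. They are set beside the 321 epithelial D14 cells (EPCAM, CDH1, CLDN6 and FOXA2 at 3 or more UMIs per 10000), which should lack muscle RNA and had a deeper median of 18949 UMIs before thinning.

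Thick filament genes outside the selection stood above the other cells without exception among those measured at 10 CPM or more: 7 of 7 were 2-fold or more higher, with a median log2 ratio of 3.51. MYL3, the ventricular and slow muscle essential light chain, was at 2682 CPM (95% interval 2651 to 2713) against 118, a log2 ratio of 4.51. A UMI of MYL3 was found in 93.8% of D14 CMs (91.9% to 95.4%), 23.4% of the other cells and 16.8% of the epithelial cells, so that it was near universal in the selected cells and well above background. MYL4, the atrial essential light chain, was at 4508 against 390 CPM. MYH7 and MYL2 were scarce at this day. MYH7, the ventricular myosin heavy chain, was at 31.9 CPM (28.6 to 35.5) against 2.94 and was seen in 7.46% of CMs, and MYL2, the ventricular regulatory light chain, was at 5.09 against 0.304 CPM and was seen in 1.67%. MYBPC3 (myosin binding protein C) and MYOM1 (myomesin of the M-band) had log2 ratios of 3.51 and 3.30.

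Among thin filament genes 10 of 12 were 2-fold or more higher and 1 lower, with a median log2 ratio of 2.38. Cardiac actin ACTC1 was at 7702 CPM (7650 to 7754) against 646, and a UMI of it was found in 99.5% of CMs and in 52.3% of epithelial cells, so its share of cells separated the groups less well than its level. The fetal slow troponin I, TNNI1, stood at 7225 against 869 CPM. TNNI3, the adult cardiac troponin I, stood at 110 against 37.4 CPM, but its share of cells, 25.4% of CMs, was near the 20.2% of epithelial cells. TNNC1, the calcium sensor of the thin filament, was at 1195 against 83.1 CPM. TNNT1, the slow skeletal troponin T, was the exception, at 34.4 CPM against 76.4, and was highest in the epithelial cells with 189 CPM. Of the Z-disc genes 14 of 14 were higher, with a median of 3.21. ACTN2, the crosslinker of the Z-disc, was at 420 against 24.3 CPM and was found in 65.6% of CMs (62.1% to 68.9%) but in 4.98% of epithelial cells. Against the other D14 cells under 0.5% muscle share alone, chosen after seeing the data, the median was 4.45 for thick filament, 3.14 for thin filament and 4.10 for Z-disc genes. Of the Z-disc genes, CSRP3, a muscle LIM protein, had a log2 ratio of 4.03, and DES, the muscle intermediate filament, had the smaller ratio of 2.18.

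**Figure D2:**
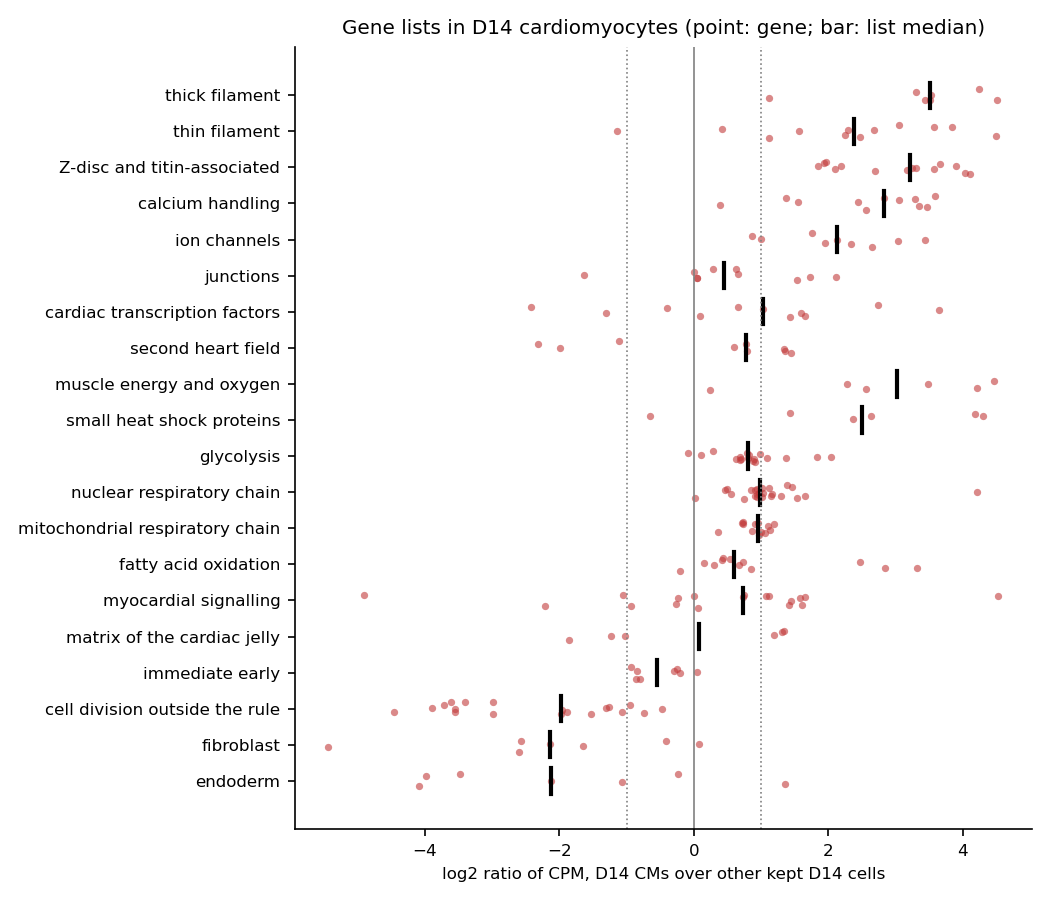
Log2 ratio of CPM in D14 CMs over the other kept D14 cells (horizontal axis) for each gene at 10 CPM or more in 20 lists (vertical axis); points are genes, black bars list medians and dotted lines 2-fold. Sarcomere, calcium and muscle energy lists lie to the right with medians up to 3.51, and genes of cell division outside the rule lie to the left at -1.98.

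Calcium handling genes followed the sarcomere: 10 of 11 were 2-fold or more higher and 0 lower (median 2.82). PLN, the brake on the calcium pump, was at 1520 against 150 CPM and SLC8A1, the sodium-calcium exchanger, at 206 against 21.2. RYR2, the release channel of the calcium store, was at 127 against 18.0 CPM and was found in 37.8% of CMs and 4.05% of epithelial cells. The store's own calcium buffer was not detectable at this depth beyond a single molecule, with 1 UMI of CASQ2 over all 778 cells. SLN, an atrial regulator of the pump, was at 185 against 15.3 CPM, although only 17.9% of the thinned CMs had a UMI of it. Of 9 ion channel genes 8 were higher (median 2.14). HCN4, the pacemaker channel, was at 37.1 against 7.33 CPM. For KCNH2, a repolarizing potassium channel at 67.2 against 33.6 CPM, the 2-fold mark was lost without 1 cell, with a log2 ratio of 0.99. Junction genes were mixed, with 3 of 10 higher and 1 lower. CDH2, the adhesion molecule between CMs, was at 255 against 77.2 CPM, whereas GJA1, the main gap junction protein of ventricular muscle, was lower at 18.4 against 57.4 CPM, and the atrial gap junction gene GJA5 had 0 UMIs, which allows up to 0.278 CPM.

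Cardiac transcription factors set these cells apart less than their muscle genes did: 6 of 11 were higher and 2 lower, with a median log2 ratio of 1.03. NKX2-5, a master regulator of heart muscle, was at 504 CPM (491 to 518) against 319, and was found in 82.1% of CMs, 58.4% of the other cells and 18.4% of epithelial cells. GATA4 was at 97.0 against 35.9 CPM, MEF2C at 454 against 145 and MYOCD, the partner of serum response factor, at 172 against 25.6. SMYD1, a muscle methyltransferase, had the higher ratio of 3.64. HAND1 and HAND2, factors of the early heart and its neighbouring mesoderm, were lower, at 43.9 against 235 CPM and 147 against 365. Second heart field genes were divided, with 3 of 9 higher and 3 lower. ISL1 was at 45.7 CPM (41.8 to 49.9) against 182 and was found in 13.0% of CMs (10.7% to 15.6%) against 44.5% of the other cells and 45.5% of epithelial cells. FGF10, on the other hand, was at 69.3 against 27.0 CPM, and EDNRA, the receptor of the endothelin in the growth medium, at 72.5 against 26.8.

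Markers of chamber type gave no single picture. NPPA, the atrial natriuretic peptide, was at 244 CPM (235 to 253) against 12.0, a log2 ratio of 4.35, but a UMI was found in only 15.6% of thinned CMs (13.1% to 18.3%), against 3.12% of epithelial cells. NPPB, the B-type peptide, was at 77.1 against 24.4 CPM, and its share of cells, 3.86%, was at the 4.05% of the epithelial background. IRX4, a ventricular factor, was at 4.16 against 0.380 CPM, and HEY2, a factor of the compact ventricular wall, was lower at 7.86 against 29.8. NR2F2, an atrial factor, was at 4.72 against 37.6 CPM, whereas KCNA5, an atrial potassium channel, was at 12.5 against 2.13. The nodal factors SHOX2 and TBX18 had 0 UMIs, and TBX3 was at 9.53 CPM against 31.3.

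Glycolysis genes were abundant in D14 CMs, at a summed 31416 CPM against 18368, yet 4 of 18 reached 2-fold, and the median log2 ratio was 0.81. GAPDH was at 11263 against 6429 CPM and ENO1 at 4548 against 2458. HK2, the muscle hexokinase, and PFKP, a phosphofructokinase, were among those past 2-fold, with ratios of 1.83 and 2.04. PDK1, which diverts pyruvate from mitochondria, was at 286 against 70.8 CPM, and 2 of 8 hypoxia genes were higher. Respiratory chain genes were higher to a like degree, with 12 of 24 nuclear genes (median 0.99) and 4 of 13 mitochondrial genes (0.96), in cells that were chosen under a limit on the mitochondrial share. The mitochondrial median was 0.29 when that limit was lowered to 5%, a setting added once the data had been seen. Of 12 fatty acid oxidation genes 3 were higher (median 0.60), among them FABP3, the fatty acid carrier of heart muscle, at 310 against 31.1 CPM. Muscle energy genes were further apart, with 5 of 6 higher (median 3.02). COX6A2, the muscle form of a cytochrome oxidase subunit, stood at 324 against 17.4 CPM, and CKM, muscle creatine kinase, at 123 against 5.58. Small heat shock proteins were higher for 5 of 6 genes (median 2.50), led by HSPB3 with 31.7 against 1.60 CPM and by the lens and muscle chaperone CRYAB with 155 against 8.49.

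Signalling and matrix genes are of interest because embryonic heart muscle instructs its neighbours. Of 18 myocardial signalling genes 8 were higher and 3 lower. WNT2 stood at 40.3 against 1.72 CPM (log2 ratio 4.53) and was found in 11.7% of CMs against 0.935% of epithelial cells. BMP2, which heart muscle sends to the cushions, was at 236 against 75.0 CPM, and BMP4, a BMP of the neighbouring mesoderm, was lower at 21.5 against 99.6. The hyaluronan synthase HAS2 and the proteoglycan VCAN, makers of the cardiac jelly, were at 167 against 66.2 and 840 against 367 CPM. Fibronectin (FN1) was lower, at 773 against 1817 CPM. Of 19 division genes outside the rule 16 were lower and 0 higher (median -1.98), in cells chosen for few UMIs of other division genes. Among inhibitors of the cell cycle CDKN1A was higher at 151 against 69.4 CPM, and the cyclin CCND1 was lower at 21.3 against 74.6.

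Of the genes with the largest ratios at 100 CPM or more, several belonged to none of these lists. POPDC2, a membrane protein of the heart that binds cyclic AMP, was at 115 against 6.11 CPM, APOBEC2, a muscle member of a deaminase family, at 231 against 18.2, and LAD1 at 221 against 15.7. At the other end stood genes of several kinds. Among them were the matrix genes MFAP4, at 6.11 against 101 CPM, and COL3A1, at 128 against 772. DLK1 was at 37.3 against 597 CPM, ENG at 14.8 against 157 and TMSB4X, an actin-sequestering peptide, at 696 against 4834. ANXA1 was at 13.0 against 131 CPM and NPY at 16.4 against 117. KIAA0101 was at 13.0 against 102 CPM, with a log2 ratio between -3.55 and -1.84 over 13 settings. All kept D14 cells over the proliferation limit were counted with the other cells, and their part in this ratio was not tested. A UMI of COL3A1 was nevertheless found in 20.1% of thinned CMs, against 15.6% of epithelial cells.

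The selected cells were then ordered by their muscle share into 4 bins of 194 or 195 cells, from 1.00% to 1.43% in the lowest to 3.14% to 9.34% in the highest. The order uses the selection genes themselves, and the mitochondrial share went with it, from 4.56% to 6.87%, as did the depth of the top bin, with a median of 13971 UMIs against 12361 in the lowest. The part of both in the differences was not tested. Of 9030 genes, 164 were 2-fold or more higher in the highest than in the lowest bin (1.82%) and 345 lower (3.82%). NPPA ran from 19.4 over 39.8 and 112 to 746 CPM, and ACTA1, skeletal actin, from 14.8 over 47.2 and 192 to 334. NPPB was at 12.2, 23.6, 13.9 and 240 CPM, so that its difference lay in the top bin alone. CRYAB ran from 22.8 over 49.1 and 129 to 391 CPM. Of the selection genes, which set this order, MYL7 ran from 2864 to 28277 CPM and TTN from 3743 to 5704. Across the 778 cells the thinned counts of MYL7 and TTN had a Spearman's rho of 0.03, a description over cells of 1 library. MYL7 and TNNC1 had 0.56. The cells were chosen on a sum that holds MYL7 and TTN but not TNNC1, which can lower the first value, so the 2 values are not alike.

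Of 12 cardiac transcription factors 1 was higher, TBX5 (5.33 to 15.4 CPM), and 1 lower, HAND2 (213 to 88.5 CPM). NKX2-5 was at 527, 480, 503 and 508 CPM, GATA4 at 92.8 in the lowest and 112 in the highest, and GAPDH at 10821 and 11104, with 0 of 18 glycolysis genes at 2-fold in either direction. Lower toward the top were ISL1, at 62.0, 63.1, 44.9 and 16.4 CPM, and COL3A1, at 218, 148, 120 and 35.5. PLAT, a plasminogen activator, was at 159, 137, 64.4 and 24.6 CPM. Of 8 immediate early genes 7 were lower, with FOS at 523 in the lowest and 238 in the highest and JUNB at 259 and 112. Immediate early genes respond within minutes to many stimuli, cell dissociation among them.

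**Figure D3:**
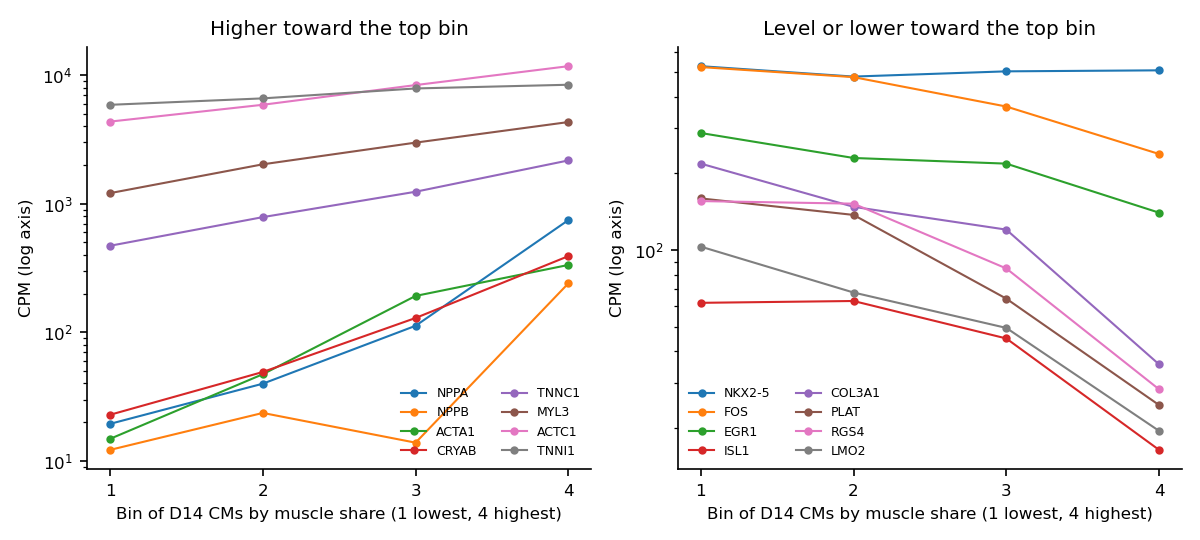
CPM (vertical axis, log scale) in the 4 bins of D14 CMs ordered by muscle share (horizontal axis, lowest to highest), for genes that were higher toward the top bin (left) and genes that were level or lower (right). NPPA goes from 19.4 to 746 CPM, while NKX2-5 lies between 480 and 527.

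Several of these genes came from few cells. The 78 D14 CMs with most UMIs of NPPA held 91.7% of its 2636 UMIs, and 223 of 778 cells had any. For NPPB, 61 cells had a UMI and 1 cell held 182 of 833; without it the log2 ratio to the other D14 cells was 1.31 instead of 1.66. ACTA1 was detected in 163 cells, MYH7 in 118 and SLN in 204, with 93.7%, 88.4% and 86.9% of their UMIs in the top 78. By contrast MYL3 was found in 762 cells and NKX2-5 in 758, and the top 78 held 33.7% and 23.5%. Levels of NPPA, NPPB, ACTA1, MYH7 and SLN summed over all CMs thus describe a minority of them.

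Clustered on their own, the D14 CMs gave 5 sub-clusters, which are given by number because the genes that separate them also define them. Sub-cluster 4 was the biggest, with 240 cells (30.8%). It led in COL3A1 (315 against 38.3 CPM in the other CMs) and held the most HAND2 (249 CPM) and ISL1 (99.8 CPM), at a low muscle share of 1.57% and the highest doublet score, 0.0554. Sub-cluster 0, with 176 cells, led in the amino acid and stress response genes ARG2 (151 against 39.3), ASNS (108 against 28.2) and DDIT3 (103 against 28.9). Sub-cluster 2, with 152 cells, had the highest muscle share (3.41%) and held NPPA at 801 against 88.2 CPM, with a UMI in 57.2% of its cells against 21.7%, and ACTA1 at 396 against 84.7 and ANKRD1, a stretch-responsive Z-disc protein, at 824 against 135.

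Sub-cluster 3 was the smallest, with 48 cells (6.17%). NGFR, a neurotrophin receptor, was at 330 against 49.9 CPM there and in 81.3% of its cells against 25.8%. SORCS1, a sorting receptor, was at 120 against 21.9 CPM. The hormone subunit CGA led the sub-cluster at 392 CPM, but 8 of its 48 cells had a UMI and 1 cell held 251 of the 331 UMIs over all CMs. Likewise in sub-cluster 1, with 162 cells, the leading gene APOA2 (170 against 2.74 CPM) was found in 4 cells, whereas TSPAN7, a tetraspanin (137 against 24.4 CPM), was in 64.8% of cells against 19.8%. NKX2-5 lay between 450 and 633 CPM in all 5, and summed glycolysis genes between 26879 CPM in sub-cluster 3 and 39013 in sub-cluster 1.

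**Figure D4:**
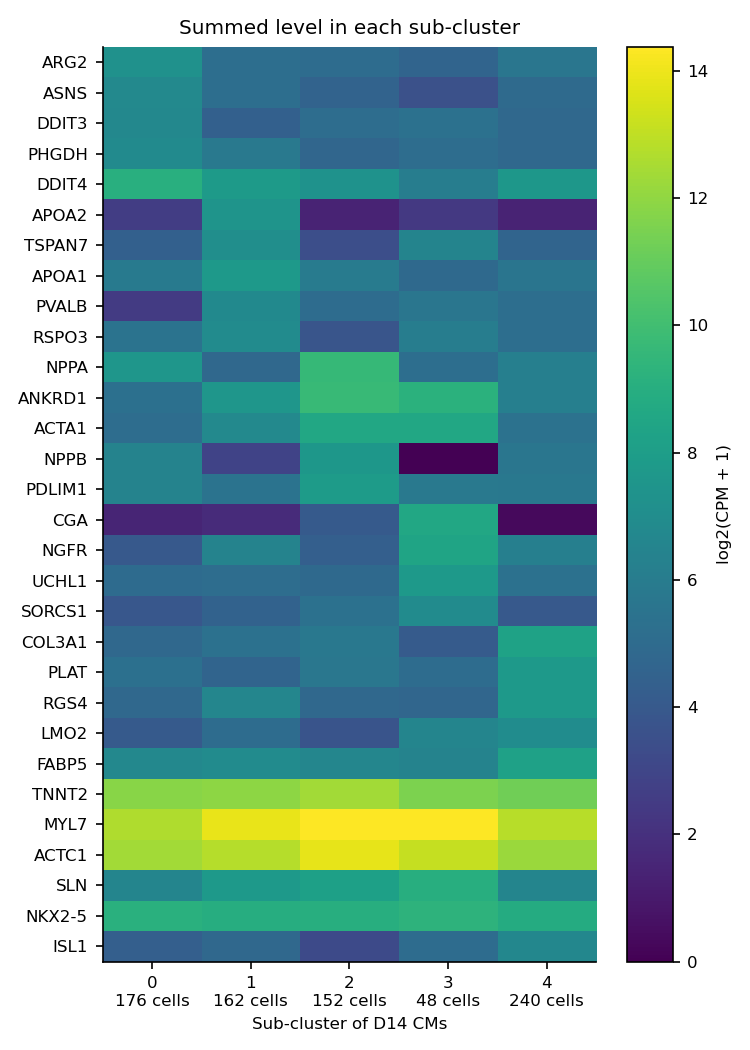
Summed level, as log2(CPM + 1) by colour, of the leading genes of each sub-cluster and of 6 muscle and progenitor genes (vertical axis) in the 5 sub-clusters of D14 CMs (horizontal axis, with cell numbers). NPPA stands out in sub-cluster 2 at 801 CPM and NGFR in sub-cluster 3 at 330 CPM.

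Cells selected by the same rule at D8 and D21 placed the D14 CMs in time. From D8 to D14, 863 of 8972 genes were 2-fold or more higher (9.62%) and 185 lower (2.06%), with a median log2 ratio of 0.0299. From D14 to D21, 418 of 9042 were higher (4.62%) and 1140 lower (12.6%), with a median of -0.14. TMM scaling moved that median to 0.04 and gave 567 higher and 881 lower. The muscle share also differed between the days, so medians are given beside those from cells with a share of 1% to 3% at every day (129, 560 and 108 cells), chosen after seeing the data. This range narrows the difference but does not remove it. The median muscle share in it was 1.44% at D8, 1.71% at D14 and 2.21% at D21, and the mitochondrial share 3.48%, 4.98% and 7.64%. Both steps use the D14 cells, and no relation between them was computed.

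Sarcomere genes were higher at D14 than at D8 for 5 of 7 thick filament genes (median 1.78; 1.72 in cells of 1% to 3%) and 7 of 14 Z-disc genes (1.06; 0.86), but for 3 of 12 thin filament genes, of which 2 were lower. MYL3 was at 324 CPM at D8, 2682 at D14 and 9001 at D21. MYH7 was at 7.07, 31.9 and 584 CPM, and MYL2, with 2 UMIs at D8, was at 0.883, 5.09 and 521 CPM. In cells of 1% to 3%, MYH7 was at 5.15, 19.4 and 222 and MYL2 at 0.937, 2.64 and 307 CPM, so that both were at their highest at D21 in this range too. TNNI1 was at 7225 CPM at D14 and 7384 at D21, but in cells of 1% to 3% at 5054, 6741 and 4442 CPM, highest at D14. TNNI3 was at 55.6, 110 and 17.8 CPM, highest at D14. ACTA1 was at 1098, 153 and 54.3 CPM, lower at each later day. TNNC1 went from 1195 CPM at D14 to 7368 at D21.

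Of the calcium handling genes 4 of 11, and of the channel genes 7 of 9, were 2-fold or more higher at D14 than at D8, and 0 were lower. HCN4, the pacemaker channel, was at 8.83, 37.1 and 37.0 CPM, with no difference between the later days beyond counting error. SLN was at 233, 185 and 3.44 CPM, and in cells of 1% to 3% at 234, 157 and 15.8. From D14 to D21, 2 of 10 channel genes were higher and 3 lower (median 0.22; -0.45 in cells of 1% to 3%), and 1 of 11 calcium genes higher and 2 lower. ATP2A2, the calcium pump, was at 135, 298 and 758 CPM.

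Small heat shock proteins were higher at D14 than at D8 for 4 of 5 genes (median 2.37; 2.27 in cells of 1% to 3%) and again at D21 for 3 of 6 (1.00; 1.01). HSPB3 was at 2.21, 31.7 and 444 CPM and CRYAB at 29.6, 155 and 327. Immediate early genes were higher at D14 than at D8 for 6 of 8, with FOS at 125, 396 and 208 CPM at the 3 days and JUNB at 42.0, 174 and 98.9. Muscle energy genes were higher at D14 than at D8 for 4 of 6 (median 1.58; 1.51 in cells of 1% to 3%), and for 2 of 6 at D21 with 1 lower (0.61; 0.01). COX6A2 was at 57.0, 324 and 275 CPM. Glycolysis had 0 of 18 genes at 2-fold from D8 to D14 (median 0.02) and 14 of 18 lower at D21 (median -1.55; -1.73 in cells of 1% to 3%), with a sum of 31416 CPM at D14 and 11067 at D21. ENO1 was at 4061, 4548 and 376 CPM and HK2 at 84.3, 111 and 5.58. Of 8 hypoxia genes 7 were lower at D21 (median -2.40; -2.52), BNIP3 among them at 600 CPM at D14 and 54.9 at D21. Nuclear respiratory chain genes stayed within 2-fold for 24 of 24 at the later step (median 0.25). Of 12 fatty acid oxidation genes 1 was higher at D14 than at D8 (median 0.12). From D14 to D21, 1 of 13 was higher and 1 lower (median 0.13, and -0.015 in cells of 1% to 3%). The higher gene at both steps was FABP3, at 54.3, 310 and 1073 CPM.

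**Figure D5:**
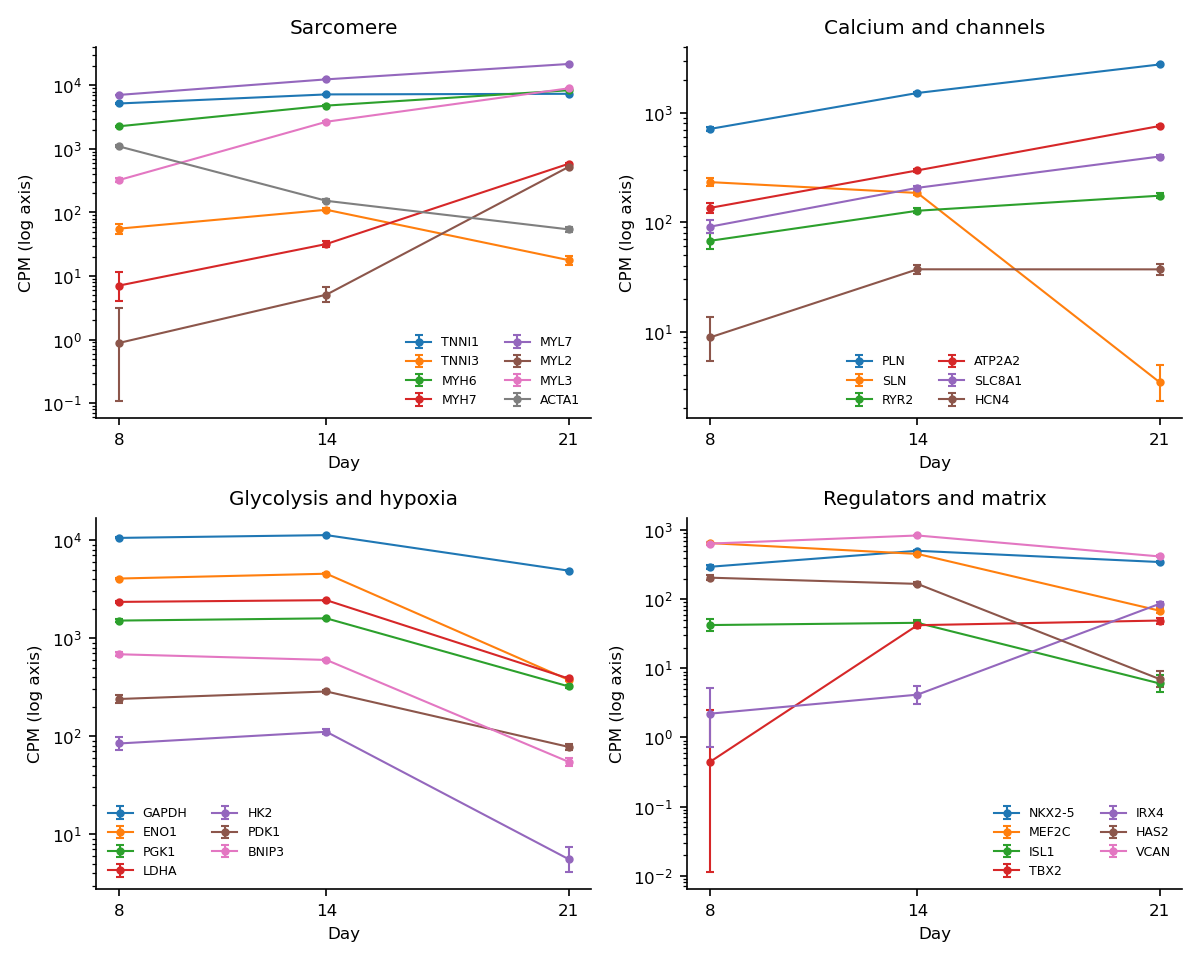
CPM (vertical axis, log scale) with exact Poisson 95% intervals as bars (mostly smaller than the points) in cells of the same rule at D8, D14 and D21 (horizontal axis), for 4 groups of genes, 1 library per day. MYL3 goes from 324 to 9001 CPM, ENO1 is at 4548 at D14 and 376 at D21, and SLN at 185 and 3.44.

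Second heart field genes had 0 of 7 higher and 1 lower from D8 to D14, and 6 of 8 lower at D21 (median -2.44; -2.16 in cells of 1% to 3%). ISL1 was at 42.4, 45.7 and 6.06 CPM and FGF10 at 82.6, 69.3 and 3.21. Of 6 cardiac jelly genes 0 passed 2-fold from D8 to D14 and 5 were lower at D21 (median -2.82; -1.47 in cells of 1% to 3%). HAS2 was at 206, 167 and 7.01 CPM, and in cells of 1% to 3% at 201, 160 and 18.8. NKX2-5 was at 296, 504 and 347 CPM. TBX2, a factor of the slow-conducting atrioventricular canal, had 1 UMI at D8 (0.442 CPM) and was at 42.2 CPM at D14 and 49.3 at D21; its log2 ratio from D8 to D14 was 5.58 with a counting interval of 4.09 to 11.88. MEF2C was at 652, 454 and 68.5 CPM. Among inhibitors of cyclin-dependent kinases, CDKN1A was at 42.8 CPM at D8 and 151 at D14 and CDKN1C at 32.2 and 105.

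Apart from the genes of the rule, COL3A1, a gene of the fibroblast list, had the largest ratio from D8 to D14 at 100 CPM or more. It was at 2.21 CPM at D8 and 128 at D14. Its D14 level lay mostly in sub-cluster 4, at 315 CPM against 38.3 in the other CMs. In the other D14 cells COL3A1 was at 772 CPM, and the part of free RNA from them was not tested. Next came CITED4, a coactivator partner, with 6.18 and 253 CPM. EEF1A2, the muscle and nerve elongation factor, was at 12.4 and 309. Lower at D14 were CTSV, a lysosomal protease, at 26.6 against 210 CPM at D8, and TMEM88, an inhibitor of Wnt signalling in cardiac progenitors, at 28.5 against 208. From D14 to D21 the 2 highest ratios were those of liver genes, with ALB at 3.42 and 1214 CPM and AFP at 2.22 and 553. At D14 a single cell held all of the ALB. In the other D21 cells ALB was at 10770 and AFP at 3839 CPM, and the part of free RNA from them in the D21 values was not tested. COL2A1, a cartilage collagen, was at 124 CPM at D14 and 7.72 at D21, and SOD3, an extracellular superoxide dismutase, at 205 and 6.89.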

How the data were processed

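The authors deposited UMI counts per gene and cell barcode, without normalization, from dissociated organoids (Chromium 3' libraries, 1 per day); the submitters' processing notes name Cell Ranger and Seurat 3.2.1 and the build hg19. The day of a barcode is the end of its column name. Following the study's methods, a cell was kept if it had over 2000 but under 7500 genes and a mitochondrial share under 10%, which left 2657, 3585 and 1946 cells with 46767738, 50247286 and 30898727 UMIs (median 15316, 12282 and 14106 per cell) at D8, D14 and D21. The D8 number is not that stated in the paper, for a reason not given in the sources used here.

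Counts were summed over cells and scaled to CPM with exact Poisson intervals. Log2 ratios used sums plus 1 UMI, over genes at 10 CPM or more in either group, with exact intervals from the split of the counts. A 2-fold ratio was the mark used, and no test was run. For shares of cells, each cell was thinned to 4000 UMIs, which left out no cell. Doublets were scored with Scrublet and kept. Sub-clusters came from 2000 variable genes, 20 principal components, 15 neighbours and Leiden at resolution 0.5. Python 3.11.15, numpy 2.4.6, scipy 1.17.1, pandas 2.3.3, scanpy 1.11.5, anndata 0.12.19, matplotlib 3.10.9 and, for TMM factors, edgeR 4.0.16 in R 4.3.3 were used. On simulated data with 200 of 8797 genes changed, made from D14 CMs and the other D14 cells, the true value lay in 95.3% of intervals, and 99.5% of changed genes came within 0.5 (log2). The simulated sums were Poisson draws, the model on which the intervals rest. They hold no spread between cells or libraries, so this checks the computation alone and not the coverage in the real counts.

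Genes are named from the lists, from the 15 largest ratios each way against the other D14 cells, the 8 each way between days, the 5 leading genes of each sub-cluster and the 5 each way between the extreme bins of muscle share, all at 100 CPM or more. KCNH2, CGA and the genes of single cells (ALB and AFP at D14) are singled out after their values were seen. The members and lists were chosen with earlier results of these data known. Promoters are RefSeq windows of GRCh38.p14 matched by symbol, and no coordinate of the files' build was used. The values of 1 listed gene are not reported here. Alternatives were other limits on the muscle share, mitochondrial share, genes per cell and proliferation, TMM and median-of-ratios scaling, equal weight per cell, other filters, thinning, doublet scores, a background subtraction and other comparison cells. The cells of 1% to 3% muscle share for single genes and lists, the mitochondrial limits and other comparison cells for lists, and the removal of single cells were chosen after seeing the data.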

Additional observations from a re-analysis of the deposited data

Results flagged for a closer look

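Data outside the main comparison held muscle RNA: 164 D14 barcodes over the mitochondrial limit met the muscle and proliferation limits. Their median muscle share was 2.97% and their mitochondrial share 12.1%, at a median of 12775 UMIs. Against the selected D14 CMs they had lower summed glycolysis (20670 against 31416 CPM; median log2 ratio -0.50), 3 of 8 hypoxia genes 2-fold or more lower (median -0.87), against 0.872% of all genes, and 1 of 14 Z-disc genes 2-fold or more higher, against 0.525%. Mitochondrial genes were higher by the choice of these barcodes and are not counted. NPPB was at 22.7 against 77.1 CPM and GJA1 at 7.27 against 18.4.

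For 7 genes of the lists or named pools, the cells of the rule and the other cells of the same library stood in opposite order at D14 and D21, by 2-fold or more at both days. The difference between the days was not tested, and the comparison cells were not matched between the days. SLN had a log2 ratio of 3.59 at D14 (185 against 15.3 CPM) and -3.49 at D21 (3.44 against 40.0). HAS2 had 1.34 (167 against 66.2) and -1.80 (7.01 against 24.8). HAND1 had -2.42 (43.9 against 235) and 1.38 (66.1 against 25.4), HAND2 -1.31 (147 against 365) and 1.07 (197 against 93.9), and HEY2 -1.91 (7.86 against 29.8) and 2.60 (79.8 against 13.2). Thus HAND1, HAND2 and HEY2 were lower in muscle cells than in the other cells at D14 and higher than in them at D21. For HAND1 and HAND2 the other cells differed more between the days than the muscle cells did, and for HEY2 the muscle cells differed more. APOA1 had 1.35 (84.5 against 33.1) and -3.41 (718 against 7614), and the D14 value was 0.95 without the cell that held 225 of its 913 UMIs. AKR1C1 had 1.02 (46.3 against 22.9) and -2.46 (12.5 against 69.1), and the D14 value was 0.98 without the cell that held 13 of its 501 UMIs.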

How the results depend on the processing

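The number of D14 CMs was 1032 with a muscle limit of 0.5%, 424 with 2%, 347 and 928 with mitochondrial limits of 5% and 20%, and 841 with 1000 genes or more and no upper limit. Genes higher and lower than in the other D14 cells were 372 and 219 at 50 CPM and 3297 and 2743 with no filter. From D8 to D14 they were 267 and 50 at 50 CPM and 1988 and 3839 with no filter. The lower count there was 413 with a muscle limit of 2%, with 44 cells at D8 and 898 genes higher, and 506 in thinned cells, with 969 higher. From D14 to D21 they were 165 and 332 at 50 CPM and 2382 and 4316 with no filter, and 1302 were higher with the mitochondrial limit of 5%, which left 39 cells at D21. Fewer or more genes enter under another filter; for the other settings the cause was not tested. The median share of CMs with a UMI, over the 8 cardiomyocyte markers that did not choose the cells, was 88.0% thinned, 97.0% unthinned and 74.4% with 2 UMIs asked for. Sub-clusters numbered 3 at resolution 0.3 and 9 at 1.0. No gene named for its ratio changed sign or came under 2-fold in the 11 settings between days or the 13 against the other D14 cells. Of 856 genes higher in CMs, 32 lost the mark without the cell that held more of their UMIs than any other. No paired analysis was possible because each day is 1 library and no result comes from a test. Depth limits genes such as MYL2 at D8, where 3 UMIs are 1.32 CPM.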
